A study of Mus musculus with 1152 samples.

Results

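Connexins are the proteins of gap junctions, and 8 of their genes were followed here through single cells of the adult mouse brain. The rule lists the members by name and sets no limit on a measured value; they were Gja1, Gja4, Gja5, Gjb1, Gjb2, Gjb6, Gjc1 and Gjc3, which are 8 of the 46517 genes in the read count table. All 8 had a row. RNA was measured with SMART-seq2, in which the cell of each plate well gives its own library from whole cDNA. Cells came from Pdgfra-H2BGFP mice, in which a nuclear green protein follows the Pdgfra gene, and from Tagl-CREERT2;Ai14 mice, in which tamoxifen lets a recombinase turn on a red protein. All were adult C57BL/6 animals of both sexes, and vascular fragments held by beads against CD31, an endothelial surface protein, were digested before fluorescent cells were sorted. The promoters limit which cells can be sorted: Pdgfra is used by fibroblasts and by precursors of oligodendrocytes, and the line named for Tagl addresses contractile cells of vessels.

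A connexon is a ring of connexin subunits in the membrane of a cell, and it docks with a connexon of a neighbouring cell to form a channel for ions and small molecules. Rings can hold a single kind of connexin or several kinds, and 2 docked rings can differ, so the genes that a cell type uses set which junctions it could form. In brain, oligodendrocytes are known for Gjb1 and Gjc3, astrocytes for Gja1, Gjb6 and some Gjb2, and vessel walls for Gja1, Gja4, Gja5 and Gjc1. Cells of the leptomeninges, the inner coverings of the brain, are known for Gja1, Gjb2 and Gjb6. RNA levels do not show whether a protein was made or a channel formed.

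No label says which line, animal or plate a well came from, so all wells are 1 sample and the classes below lack a replicate check. No p-value was made. Of 1152 wells in 3 sets of 384, 857 had at least 50000 reads (median 279874). Wells were gated by marker lists that hold no connexin. They gave 226 wells like oligodendrocyte precursors (OPC), 90 like committed precursors (COP), 299 like mature oligodendrocytes (OL), 83 fibroblast-like, 28 endothelial-like and 3 mural-like wells. The other wells were 14 microglia- or macrophage-like, 5 astrocyte-like, 4 neuron-like, 14 choroid plexus- or ependyma-like and 91 ungated. Levels are given in CPM, the reads of a gene scaled to a library of 1000000 reads. The gate is a range and not a type: 44 wells lay within 0.5 log2 units below its margin and 28 within 0.5 above it. All 6 markers of its own list were at 10 CPM or more in each of the first 5 classes, and 5 of 6 pericyte and 6 of 6 smooth muscle markers were in the mural-like wells. Markers of other types were present too: 37 of 83 fibroblast-like wells carried 3 OL markers at 50 CPM, and 8 of 28 endothelial-like wells 3 microglia markers. Of the 28 endothelial-like wells, 1 carried several T cell genes beside its endothelial ones, with no read of any member.

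Promoters of the members that carry the differences between classes are shown first, from 250 bases before to 50 after a transcription start. They come from RefSeq on GRCm38.p6, where 7 of the 8 members were matched (10 promoters in all, 4 of them of Gjb1). The first set are genes of the oligodendrocyte lineage: Gjb1 at its most upstream start site (chrX:101376126-101376425, plus strand) and its most downstream one (chrX:101383482-101383781, plus strand), and Gjc3 (chr5:137963049-137963348, minus strand). The second set are the pair highest in fibroblast-like wells, Gjb2 (chr14:57104653-57104952, minus strand) and Gjb6 (chr14:57133562-57133861, minus strand). All run 5′ to 3′, and capitals mark the letters ACAAT, the core that SOX factors bind, or GGGCGG, the GC box, read on either strand.
Gjb1 upstream start: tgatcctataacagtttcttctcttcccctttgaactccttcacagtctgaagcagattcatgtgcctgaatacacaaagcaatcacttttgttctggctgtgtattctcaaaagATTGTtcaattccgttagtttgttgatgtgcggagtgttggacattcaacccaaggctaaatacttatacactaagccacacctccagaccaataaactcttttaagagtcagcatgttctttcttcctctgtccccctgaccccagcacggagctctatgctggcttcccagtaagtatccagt
Gjb1 downstream start: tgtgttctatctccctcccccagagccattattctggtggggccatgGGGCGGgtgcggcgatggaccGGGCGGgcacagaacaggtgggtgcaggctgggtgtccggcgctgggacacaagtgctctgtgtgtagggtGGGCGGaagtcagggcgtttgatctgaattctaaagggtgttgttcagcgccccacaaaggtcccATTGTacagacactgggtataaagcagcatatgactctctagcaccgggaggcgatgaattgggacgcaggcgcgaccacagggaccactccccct
Gjc3: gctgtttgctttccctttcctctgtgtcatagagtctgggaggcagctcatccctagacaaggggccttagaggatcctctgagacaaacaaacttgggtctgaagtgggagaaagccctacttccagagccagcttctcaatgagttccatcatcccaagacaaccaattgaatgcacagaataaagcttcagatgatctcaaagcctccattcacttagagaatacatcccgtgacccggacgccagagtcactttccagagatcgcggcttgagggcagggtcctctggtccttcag
Gjb2: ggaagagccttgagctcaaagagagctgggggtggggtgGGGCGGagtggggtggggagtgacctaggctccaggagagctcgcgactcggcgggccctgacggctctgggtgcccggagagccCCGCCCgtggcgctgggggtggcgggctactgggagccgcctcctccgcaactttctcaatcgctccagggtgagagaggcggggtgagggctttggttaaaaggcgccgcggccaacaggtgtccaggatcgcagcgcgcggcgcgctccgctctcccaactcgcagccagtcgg
Gjb6: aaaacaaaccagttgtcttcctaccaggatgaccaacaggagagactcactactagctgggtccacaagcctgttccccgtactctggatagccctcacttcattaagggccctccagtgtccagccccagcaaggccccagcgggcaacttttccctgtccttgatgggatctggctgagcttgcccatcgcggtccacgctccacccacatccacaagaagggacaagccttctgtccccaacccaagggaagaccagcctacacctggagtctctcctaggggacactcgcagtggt
The SOX core stood once in each of these Gjb1 promoters and was not found in these windows of Gjc3, Gjb2 or Gjb6. Of all 32851 promoters of that length, 31.0% hold it. The GC box stood 3 times at the downstream start of Gjb1 and 2 times at Gjb2, and 35.7% of all promoters hold it at least once. Gjb2 had the highest GC content of the 5 windows shown, 70.0% against a median of 52.7% over all promoters, and Gjb6 had 57.3%. A match of letters is a description and does not show that a factor binds.

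In GENCODE vM21 on GRCm38, Gjb2 (chr14:57098600-57104702) and Gjb6 (chr14:57123303-57133611) lie on the minus strand 18.6 kb apart. Gjc3 lies at chr5:137953461-137963098 on the minus strand and Gjb1 at chrX:101376378-101385629 on the plus strand. The vessel wall members Gja1 (chr10:56377330-56402513, plus), Gja4 (chr4:127311421-127314039, minus) and Gjc1 (chr11:102799579-102819700, minus) overlap no other gene. Gja5 (chr3:96904693-97077416, plus) does overlap another, as described with its values.

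**Figure D1:**
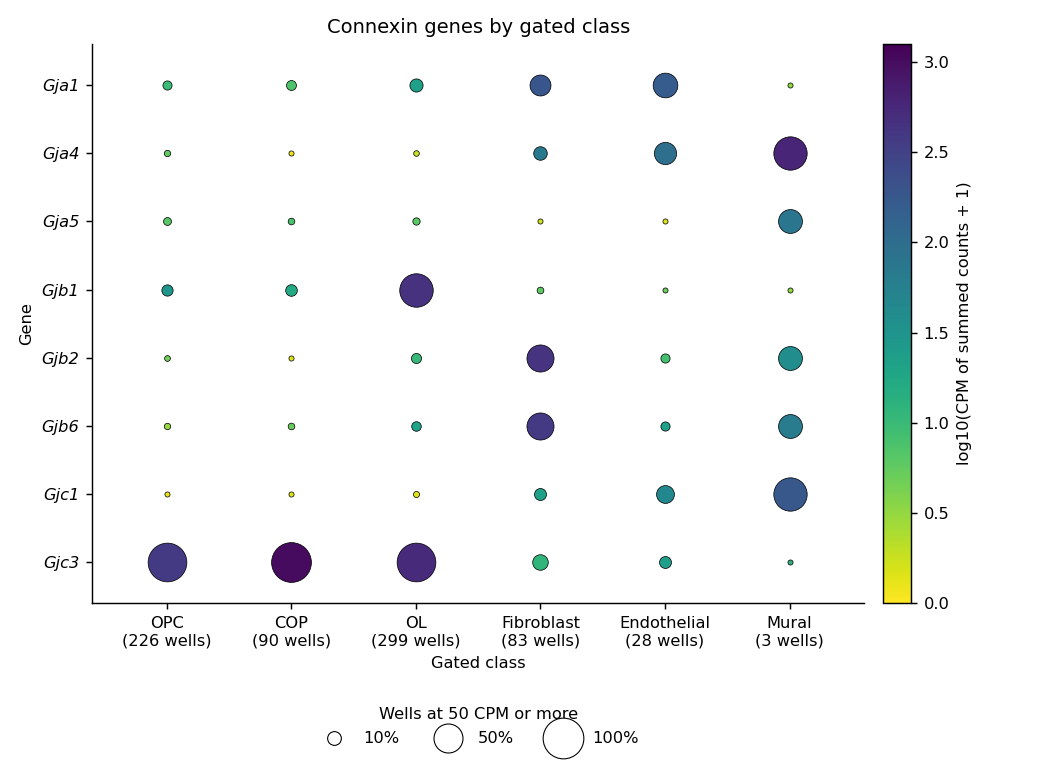
Level of each connexin gene in each gated class, as log10 of CPM plus 1 of the summed counts (colour), and the percentage of wells at 50 CPM or more (dot area). Gjc3 is high in all 3 oligodendrocyte stages, Gjb1 in OL, Gjb2 and Gjb6 in fibroblast-like wells, and Gja4 and Gjc1 in the 3 mural-like wells.

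Gjc3, a connexin of myelinating cells that formed no channels between cells by itself when expressed in transfected cells, was at 50 CPM or more in most wells of all 3 stages of the lineage and highest in the middle stage. The summed counts gave 374 CPM in OPC (95% exact Poisson interval 369 to 378), 1009.6 CPM in COP (1000.2 to 1019) and 534 CPM in OL (529.8 to 539). These intervals, like all below, cover counting error only, since PCR copies of 1 molecule were counted as separate reads. In single wells the median was 310.4 CPM in OPC (highest 1516), 913 CPM in COP (highest 2350) and 389.6 CPM in OL (highest 6119). The wells overlap widely, but the sets of wells do not: Gjc3 lay at 367 to 399.7 CPM in OPC, 978 to 1012 CPM in the 2 sets with at least 5 COP wells, and 474 to 602 CPM in OL. At least 50 CPM was reached in 204 of 226 OPC wells, 86 of 90 COP wells and 270 of 299 OL wells.

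The step from OPC to COP was gauged by the ratio of these levels with 1 CPM added to each side. A gene was called at a 2-fold difference or more and a level of 10 CPM or more in the higher of both classes, which is a rule of size and not a test. For COP over OPC, 1 of the 2 members that reached 10 CPM in a class, Gjc3, was called higher, where 10.5% of all 11459 genes so gauged were, and no member was called lower (22.8% of all genes). The log2 ratio of Gjc3 was 1.43, a 2.70-fold difference, and it was 1.46 within set 600s_182s and 1.29 within set 613s. For OL over COP, Gjc3 had a log2 ratio of −0.92 (−1.01 and −0.70 within the same sets), just short of a call in the pooled wells. OL over OPC it stood at 0.51, between 0.37 and 0.59 in the 3 sets.

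Gjb1, the myelin connexin whose human counterpart is mutated in an X-linked neuropathy, was a gene of the last stage. Its level was 29.1 CPM in OPC (27.8 to 30.4), 16.1 CPM in COP (14.9 to 17.3) and 451 CPM in OL (446 to 455). The median OL well had 250.2 CPM, with quartiles of 29.0 and 582 CPM and a highest well of 3487 CPM, whereas the median was 3.45 CPM in OPC and 3.26 CPM in COP. Accordingly 201 of 299 OL wells were at 50 CPM or more, beside 14 of 226 OPC wells and 6 of 90 COP wells. In OPC the reads sat in few wells, led by 668, 568 and 511 CPM, and 12 of the 14 carried at least 3 OL markers at 20 CPM, as did 201 of all 226 OPC wells. With every well thinned to 50000 reads, a read of Gjb1 was found in 83.3% of OL wells, 27.0% of OPC wells and 23.3% of COP wells, and also in 24.1% of fibroblast-like wells, which are not known to use it. With 2 reads asked for, the shares were 72.9% of OL, 14.2% of OPC, 10.0% of COP and 3.61% of fibroblast-like wells, and the summed level of fibroblast-like wells was 4.89 CPM. The OPC and COP shares thus lay near that of fibroblast-like wells at 1 read and above it at 2 reads, at median depths before thinning of 264020 reads in OPC, 443377 in COP and 249810 in fibroblast-like wells. The OL range over sets, 357 to 568 CPM, lies apart from that of OPC (17.3 to 32.3 CPM), while OPC and COP overlap (9.71 to 20.9 CPM in COP).

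For OL over COP, 3 of 4 members were called higher, Gjb1, Gjb6 and Gja1, where 13.1% of all genes were, and none lower (20.3%). For OL over OPC the same 3 of 4 were called higher (11.3% of all genes) and none lower (29.5%). Only Gjb1 held in each set: its log2 ratio over COP was 4.72 (5.06 within 600s_182s, 4.26 within 613s) and over OPC 3.91 (3.43 to 4.52 over the 3 sets). Leaving out set 600s_182s, which holds 74 of the 90 COP wells, gave 3.39 over COP.

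Genes were set side by side per kilobase of exon. The length is that of all annotated exons merged, not of the transcript in use, so orders between genes depend on the annotation. On that scale Gjc3 was above Gjb1 in OPC, with 85.8 against 17.0 CPM per kb. In COP these levels were 231.8 CPM per kb for Gjc3 and 9.42 for Gjb1. In OL the order turned, with 123 CPM per kb for Gjc3 and 264 for Gjb1.

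**Figure D2:**
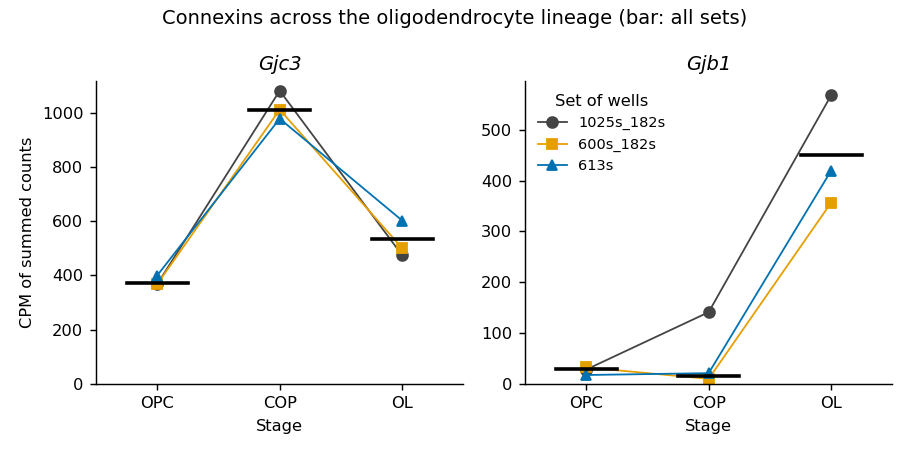
CPM of summed counts of Gjc3 and Gjb1 in the stages OPC, COP and OL, for each set of wells (points and lines) and all sets together (black bars). Gjc3 peaks in COP in every set and Gjb1 is high in OL only; the COP point of set 1025s_182s rests on 4 wells, where Gjb1 had 141 CPM.

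The remaining members were low in the lineage. Gja1, the main astrocyte connexin, had 8.73 CPM in OPC, 6.43 CPM in COP and 21.4 CPM in OL, and its median well had 0 in each stage. Gjb6, which pairs with Gjb1 between astrocytes and oligodendrocytes, had 2.09, 4.26 and 19.1 CPM in the same order. Gjb2 had 3.73, 0.45 and 9.65 CPM. Single wells held much of this signal: 38.7% of the Gja1 reads of OPC, 90.4% of the Gjb6 reads of COP and 38.8% of the Gjb2 reads of OL came from 1 well each.

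The higher Gja1 and Gjb6 of OL did not hold across sets. Gja1 in OL over OPC had a log2 ratio of 1.20 in all wells, 2.26 within set 1025s_182s, −0.12 within 600s_182s and −0.03 within 613s. Without set 600s_182s it was 0.35, and over COP it was −0.043 against 1.59 in all wells. Gjb6 in OL over OPC had a log2 ratio of 2.70 in all wells, and of 4.60, −0.78 and 1.12 within sets 1025s_182s, 600s_182s and 613s. Over COP its ratio was 1.94, and 0.44 without set 1025s_182s.

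The levels of Gja1, Gjb2 and Gjb6 were higher in OL wells rich in mitochondrial reads. The 74 OL wells with at least 5% mitochondrial reads had a median depth of 79670 reads, against 370960 in the 225 others. Gja1 was at 119.8 CPM in the 74 wells and 14.9 CPM in the 225, Gjb6 at 126 and 12.1 CPM, and Gjb2 at 68.4 and 5.75 CPM. The median well had 0 of each of the 3 genes in both groups, and at least 50 CPM was reached by Gja1 in 13 of the 74 and 14 of the 225, by Gjb6 in 7 and 5, and by Gjb2 in 13 and 1. Of the reads, the 74 held 765 of Gja1, 804 of Gjb6 and 437 of Gjb2, and the deeper 225 held 1435, 1161 and 554. Gjb1 went the other way, with 60.9 CPM in the 74 wells and 476 CPM in the 225. The summed level of the 6 astrocyte markers was 2246 CPM in the 74 wells (per well 16.1 to 9719) and 293 CPM in the 225 (0 to 3801), and all 6 were at 10 CPM or more in both. Aqp4, which defines astrocytes, had 40.6 and 12.2 CPM, and Aldh1l1 had 18.8 and 23.4 CPM. Other lists moved likewise, with summed levels of 1232 and 147 CPM for neuron markers, 925 and 133 CPM for choroid plexus markers and 331 and 43.9 CPM for fibroblast markers. Of the 14 OL wells with Gjb2 at 50 CPM, 12 carried at least 3 fibroblast markers at 20 CPM, as did 62 of all 299. The part of these other cell types in the Gja1, Gjb2 and Gjb6 of OL was not tested.

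**Figure D3:**
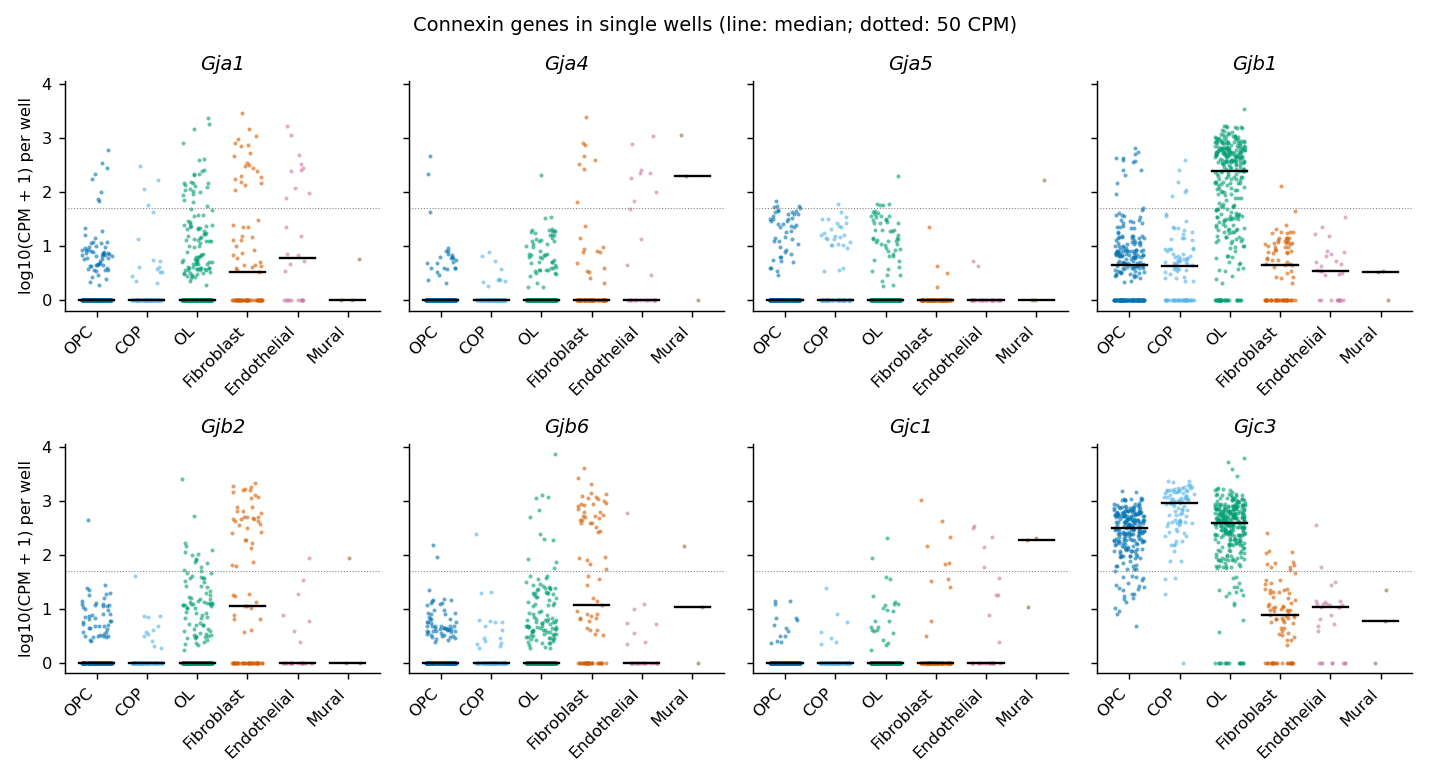
Each connexin in single wells of the 6 gated classes, as log10(CPM + 1), with the median of each class (black line) and 50 CPM (dotted). Wells of Gjc3 in OPC, COP and OL sit mostly above 50 CPM, as do OL wells of Gjb1. Fibroblast-like wells range from 0 to high levels of Gjb2 and Gjb6.

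Fibroblast-like wells had the beta connexins Gjb2 and Gjb6 as their leading pair. Per kilobase of merged exons they had 176 and 143 CPM per kb, followed by Gja4 at 41.0 and Gja1 at 18.2. In plain CPM Gja1 stood above Gja4, at 187 against 69.1. Gjb2 stood at 424 CPM in fibroblast-like wells (416 to 432), against 7.36 CPM in endothelial-like wells and 3.73 CPM in OPC. Gjb6 stood at 382 CPM (374 to 389.6), against 21.6 and 2.09 CPM. Of the 21.6 CPM in endothelial-like wells, 93.7% came from 1 well with 590.5 CPM, and the next had 11.3 CPM. Both genes varied widely from well to well. The median fibroblast-like well had 10.1 CPM of Gjb2 and 11.0 CPM of Gjb6, the upper quartile 465 and 522 CPM, and the highest 2128 and 4096 CPM. All 3 sets showed them, with 302 to 633 CPM of Gjb2 and 264 to 425 CPM of Gjb6.

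Gja1, the most widely used connexin, had 187 CPM in fibroblast-like wells (182 to 192) and 162 CPM in endothelial-like wells (154 to 171), with sets that overlap (147 to 224 CPM and 155 to 207 CPM). The median well was at 2.32 CPM, and 41.8% of its reads in fibroblast-like wells came from 1 well at 2898 CPM. Of 83 fibroblast-like wells, 21 had 50 CPM or more of Gja1. Astrocyte markers summed to 429 CPM in fibroblast-like wells, with 234 CPM from Slc1a3; Aqp4 stood at 6.26 CPM, and no well had 3 of the 6 markers at 50 CPM. At 20 CPM 3 wells did, 2 of them among the 21 with Gja1. In the 48 wells with Gjb2 or Gjb6 at 50 CPM, Aqp4 had 9.03 CPM, Gja1 249 CPM and the summed astrocyte markers 463 CPM, against 0.48, 57.2 and 360 CPM in the 35 with neither. The 48 wells were also deeper, with a median of 287370 reads against 176925 in the 35. The parts of depth and of astrocyte RNA were not tested.

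For fibroblast over OPC, 5 of 7 members were called higher (21.1% of all genes) and 2 lower (28.7%). The log2 ratios were 6.95 for Gjb6, 6.49 for Gjb2, 4.27 for Gja1, 4.07 for Gjc1 and 3.60 for Gja4, against −2.35 for Gjb1 and −4.97 for Gjc3. For fibroblast over OL the same 5 of 7 were called higher (30.6% of all genes) and the same 2 lower (22.5%), at −6.26 for Gjb1 and −5.48 for Gjc3. The called ratios kept their sign within each set except for Gja4, whose ratio over OPC was 6.38 within 1025s_182s, 3.18 within 613s and −2.37 within 600s_182s. In that last set it was at 0.33 CPM in fibroblast-like wells and 5.89 CPM in OPC. The 10.9 CPM of Gjc3 in fibroblast-like wells (highest well 257 CPM) stood beside OPC markers: all 11 wells with 50 CPM of it carried at least 3 OPC markers at 20 CPM, which 19 of all 83 did. Pdgfra itself is an OPC marker that fibroblasts use.

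Against endothelial-like wells, 2 of 6 members were called higher in fibroblast-like wells (29.6% of all genes) and 1 lower (23.0%). The share of members called is near that of all genes, so the result is in the values: Gjb2 had a log2 ratio of 5.67 (4.58 and 6.30 within sets 1025s_182s and 613s) and Gjb6 of 4.08 (7.69 and 3.20). Gjc1, the called lower one at −1.10, was at −0.28 and −1.23 in the same sets and at −0.70 without the top well of each class. Gja1 had a ratio of 0.20 and Gja4 of −0.46.

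The 2 beta connexins often shared a well. At 50 CPM or more, 24 of 83 fibroblast-like wells had both (28.9%, exact Clopper-Pearson interval 19.5 to 39.9), 12 had Gjb2 without Gjb6, 12 Gjb6 without Gjb2, and 35 neither. Pearson's r of their log2(CPM + 1) over the 83 wells was 0.43, as a description, since the wells differ in depth. Gja1 joined Gjb2 in 12 wells and Gjb6 in 11, and all 3 were together in 8; 6 wells had Gja1 alone of the 3 and 29 had none. Wells with all 3 came from each set, 5 in 1025s_182s, 2 in 600s_182s and 1 in 613s.

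**Figure D4:**
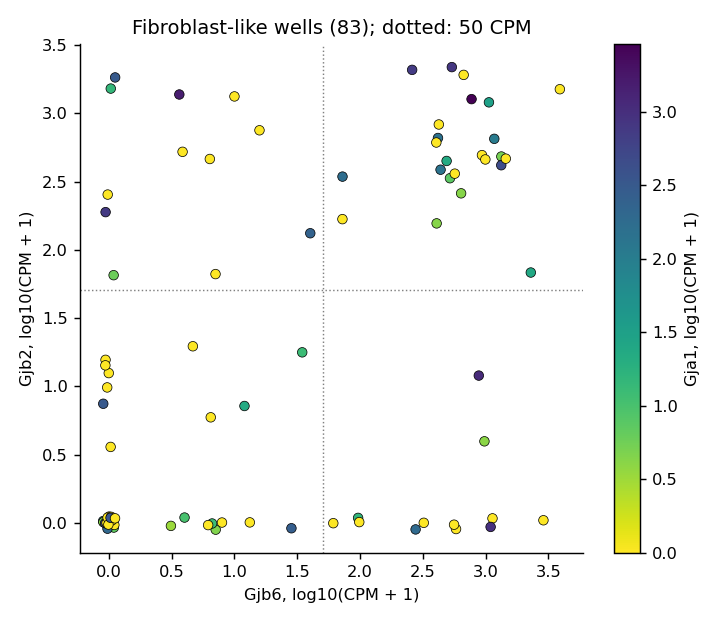
Gjb2 against Gjb6 in the 83 fibroblast-like wells, as log10(CPM + 1), coloured by Gja1, with dotted lines at 50 CPM and points shifted by up to 0.05 so that wells at 0 can be seen. The upper right field holds the 24 wells with both genes, the upper left 12 with Gjb2 alone and the lower right 12 with Gjb6 alone; Gja1 is high in some wells of each field.

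Gja4 and Gjc1, connexins of the vessel wall, reached few fibroblast-like wells at high levels. Gja4 had 69.1 CPM there, and 8 of 83 wells were at 50 CPM or more, led by 2521, 806 and 745 CPM. None of these 8 wells carried 3 pericyte, 3 smooth muscle or 3 endothelial markers at 20 CPM. Of all 83 wells only 2, 0 and 6 did, in the same order, so this does not set the 8 apart. Gjc1 had 20.0 CPM with 6 wells at 50 CPM, led by 1037 CPM. Of these 6, 2 carried 3 endothelial markers at 20 CPM, as did 6 of all 83. The part of vessel RNA was not tested.

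Gja4, found in endothelium of arteries and in mural cells, was the highest member of the 3 mural-like wells. Each of these wells carried 3 pericyte and 3 smooth muscle markers at 50 CPM, and 2 of the 3 also carried 3 endothelial markers. Gja4 stood at 1136 CPM in the mural-like well of set 613s, and at 197 CPM and 0 in those of set 1025s_182s, against 95.6 CPM in 28 endothelial-like wells (89.3 to 102.3). The well at 0 was also the shallowest of the 3, with 102031 reads. Gjc1, a connexin of smooth muscle and pericytes, had 207 CPM, 189 CPM and 9.80 CPM in the same 3 wells, against 43.8 CPM in endothelial-like wells (39.5 to 48.4). The median endothelial-like well had 0 of either gene, 8 of 28 had 50 CPM of Gja4 and 5 of 28 had 50 CPM of Gjc1. Gja1 stood at 4.71 CPM in the mural-like well of set 613s and 0 in the other two. In endothelial-like wells Gja1, at 162 CPM, was above Gja4 in CPM, while per kilobase of exon Gja1 had 15.8 and Gja4 56.7 CPM per kb. The merged exons of Gja1 measure 10.257 kb and those of Gja4 1.685 kb. Which of the 2 genes is higher thus depends on the transcripts in use, which were not measured.

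With 3 mural-like wells, ratios rest on single cells. For mural over endothelial, 5 of 7 members were called higher (23.2% of all genes) and 1 lower (41.4%); for fibroblast over mural, 3 of 7 were called higher (45.1%) and 3 lower (22.4%). Gja5, Gjb2 and Gjb6 owe their higher call to 1 well each, with 100% of the Gja5 and Gjb2 reads and 98.3% of the Gjb6 reads. Without the top well, Gja5 had a log2 ratio of −0.17 over endothelial-like wells and Gjb2 of −1.86. Without set 613s, which holds the richest well, Gja4 had a ratio of 0.11 where it was 2.64 in all wells.

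Vessel wells were also taken by markers at 200 CPM, with no margin between lineages, a grouping made after the data were seen. At least 3 mural markers alone were carried by 6 wells, at least 3 mural and 3 endothelial markers by 20, and at least 3 endothelial markers alone by 50. The gate had left 4 of the 6, 15 of the 20 and 16 of the 50 ungated. Gja4 had 288 CPM in the 6 wells, 480 CPM in the 20 and 58.4 CPM in the 50. It reached 50 CPM in 3 of 6, 18 of 20 and 10 of 50 wells. Most wells with both marker kinds thus had Gja4 at 50 CPM, 5 of 7 in set 613s and 12 of 12 in set 1025s_182s. Among endothelial-marked wells 3 of 22 and 5 of 23 did in the same sets. Summed levels were 415 against 26.0 CPM in 613s and 549.7 against 99.6 CPM in 1025s_182s. Wells with both kinds were also deeper, at a median of 458806 reads, against 129506 with mural markers only and 274835 with endothelial markers only.

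Gjc1 was likewise highest in the wells with both marker kinds, at a lower level. It had 63.7 CPM in mural-marked wells, 121 CPM in wells with both and 31.9 CPM in endothelial-marked wells, and 50 CPM was reached in 1 of 6, 11 of 20 and 9 of 50. In mural-marked wells 98.3% of its reads came from 1 well at 369 CPM, and the median was 0. The level there thus rests on 1 well. Gja1 ran otherwise in its summed level only, at 24.4, 117 and 156 CPM in the same order. By wells it too was most frequent with both marker kinds, at 50 CPM in 1 of 6, 13 of 20 and 16 of 50. Its medians were 6.25, 62.3 and 8.16 CPM, and 1 well at 1670 CPM gave 25.7% of its reads in endothelial-marked wells. Of the 20 wells with both, 11 had Gja1 and Gja4 at 50 CPM and 10 had Gja4 and Gjc1. Whether these wells held more than 1 cell was not tested.

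**Figure D5:**
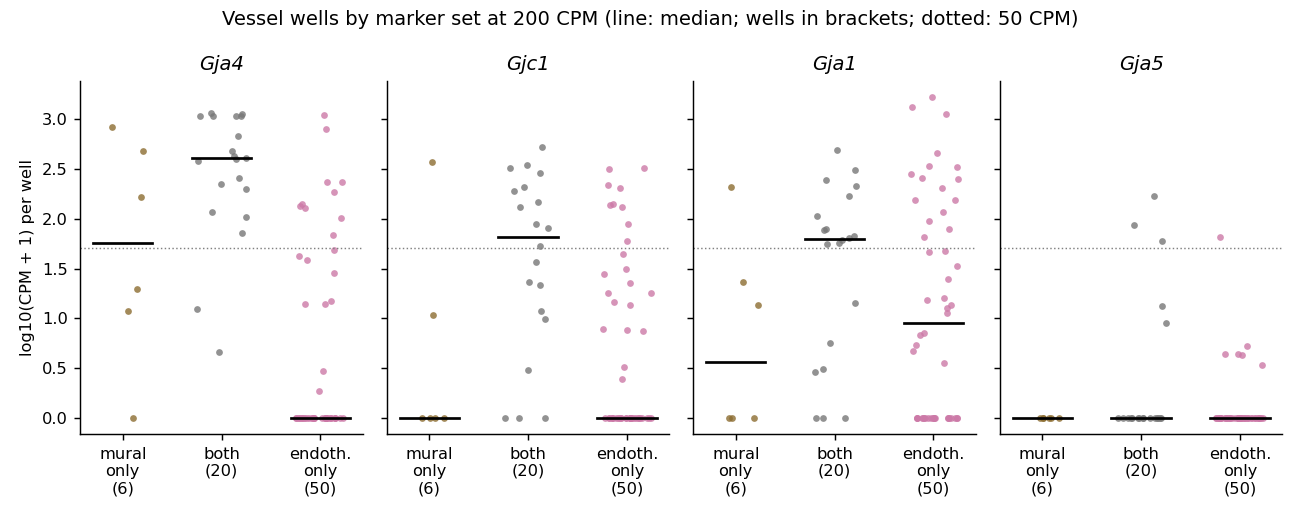
Gja4, Gjc1, Gja1 and Gja5 in single wells with at least 3 mural markers only (6), both mural and endothelial markers (20) or endothelial markers only (50), at 200 CPM, as log10(CPM + 1) with medians (black lines) and 50 CPM (dotted). Gja4 is at 50 CPM or more in 18 of the 20 wells with both, and in 10 of the 50 with endothelial markers only.

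Among the 28 endothelial-like wells, Gja4 went with genes of arterial endothelium, a list (Bmx, Efnb2, Sema3g, Gkn3, Vegfc) chosen after the data were seen. The 12 wells with 2 or more of them at 50 CPM had 217 CPM of Gja4, and the 16 others had 20.2 CPM. Single wells gave 35.9% and 85.5% of these reads, and without the top well of each group the levels were 149 and 3.24 CPM. At least 50 CPM was found in 6 of 12 and 2 of 16. Smooth muscle markers moved with it, at 623 CPM summed in the 12 wells and 33.8 CPM in the 16, and pericyte markers at 1016 and 537 CPM. Of the 8 endothelial-like wells with Gja4 at 50 CPM, 5 carried 3 pericyte markers at 20 CPM, as did 6 of all 28. The part of mural RNA in this level was not tested.

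Gja5, in mouse the connexin of arterial endothelium, was nearly absent from endothelial-like wells, at 0.45 CPM from 4 reads. It was not seen at 50 CPM in any of the 28. Its single high level among gated vessel wells was 167 CPM, in the mural-like well with the most Gja4. That well is also 1 of the 20 with both marker kinds at 200 CPM, of which 3 had Gja5 at 50 CPM. They had 167, 85.4 and 58.4 CPM of Gja5, and 1136, 1081 and 1089 CPM of Gja4. Of the 50 wells with endothelial markers only, 1 reached 50 CPM of Gja5, at 64.6 CPM with 0 of Gja4. In the lineage Gja5 had 5.59 CPM in OPC, 6.77 CPM in COP and 5.20 CPM in OL. Of the 5746 bases of its merged exons, 165 overlap exons of Gpr89 on the opposite strand. The sources used here do not give the strand setting of the counting. How much of the levels of Gja5 came from Gpr89 was not tested. Gpr89 had 85.5 CPM in OPC, 78.3 CPM in COP and 56.0 CPM in OL. In the 3 mural-like wells together Gpr89 had 179 CPM and Gja5 76.1 CPM. Reads of Gpr89 were present in the mural-like well at 167 CPM of Gja5, the only 1 of the 3 with either gene. They were also present in 45 of the 47 OPC wells, 27 of 27 COP wells and 53 of 54 OL wells that had a Gja5 read. Over 766 gated wells Pearson's r of the pair was 0.74, the highest of any gene with Gja5.

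The number of members in a well differed between classes. At 50 CPM, 2 or more members shared a well in 70.9% of OL wells, 47.0% of fibroblast-like wells, 25.0% of endothelial-like wells, 12.8% of OPC wells and 12.2% of COP wells. None reached it in 39.3% of endothelial-like wells, 22.9% of fibroblast-like wells, 9.73% of OPC wells, 6.69% of OL wells and 3.33% of COP wells. The classes differ in depth, with medians of 249003 reads in endothelial-like wells to 443377 in COP, and a well at 50000 reads holds 50 CPM with few reads.

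The share of wells with 2 given members at 50 CPM shows which subunits were at hand together in a class. Whether they paired was not measured, and docked rings of 2 cells can differ, so junctions need no shared well. In OL, Gjb1 with Gjc3 shared 198 of 299 wells (66.2%, 60.6 to 71.6). In COP the same pair shared 6 of 90 wells. In OPC no pair of members passed 14 of 226 wells, the count for Gjb1 with Gjc3, and 190 wells had Gjc3 without Gjb1. Endothelial-like wells had Gja1 with Gja4 in 3 of 28 wells (10.7%, 2.27 to 28.2). In mural-like wells Gja4 and Gjc1 met in 2 of 3.

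Between classes, docking partners known from transfected cells include Gjb1 with Gjb6 or Gjb2. Those partners stood on different sides here: Gjb1 at 451 CPM in OL, and Gjb6 and Gjb2 at 382 and 424 CPM in fibroblast-like wells. The 5 astrocyte-like wells, a class named as the usual neighbour of oligodendrocytes, had 545 CPM of Gjb6, 149 CPM of Gja1 and no read of Gjb2. All of their Gja1 reads and 59.1% of their Gjb6 reads came from 1 well each. They were shallow, with a median of 96219 reads. Fibroblast-like and endothelial-like wells shared Gja1 at levels whose sets overlap. Gja4 ranged from 0.33 to 121.8 CPM over the sets of fibroblast-like wells and from 38.5 to 154.8 CPM in endothelial-like wells. It was at 50 CPM in 8 of 83 and 8 of 28 wells. Mural-like and endothelial-like wells both had Gja4 and Gjc1, though at 50 CPM in only 8 and 5 of the 28 endothelial-like wells. Of those 8 wells, 5 carried 3 pericyte markers at 20 CPM. In turn 2 of the 3 mural-like wells carried 3 endothelial markers at 50 CPM. The part of mixed RNA in this sharing was not tested. Whether cells of these classes touched each other cannot be read from dissociated cells.

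Of 9 further connexin genes followed, 0 reached 10 CPM in any of the 6 classes. Gja3 and Gja10 had no read in those classes, and the other 7 stood at 0.57 CPM or less. Gjd2, the connexin of coupled neurons, had 9 reads in all. Among 6 related genes, the channel gene Panx1 stood out in the precursors, with 66.1 CPM in OPC, 215 CPM in COP and 2.87 CPM in OL, and Panx3 had no read. Tjp1, whose product ZO-1 binds connexin tails, had 163 CPM in mural-like wells and 326 CPM in endothelial-like wells. Dbn1, coding for the actin binder drebrin, had 158 CPM in OPC, and Cnst, coding for the connexin carrier consortin, had 63.1 CPM in endothelial-like wells. Panx2 had 16.7 CPM in OPC and 11.4 CPM in OL. For COP over OPC, 1 of the 6 was called higher (10.5% of all genes so gauged) and 2 lower (22.8%). OL over OPC had 0 higher (11.3%) and 2 lower (29.5%), and OL over COP 2 higher (13.1%) and 2 lower (20.3%). Fibroblast over OPC had 1 higher (21.1%) and 3 lower (28.7%), and over endothelial 1 (29.6%) and 1 (23.0%). Fibroblast over OL had 1 higher (30.6%) and 1 lower (22.5%), and over mural 2 (45.1%) and 0 (22.4%). Mural over endothelial had 0 higher (23.2%) and 1 lower (41.4%). With so few genes, these counts are a description and no result about the 6 as a group.

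The genes most like each member were taken by Pearson's r of log2(CPM + 1) over 766 gated wells, among 15345 genes. These r values mix class and depth and are given without a p-value. For Gjc3 they were Syt11 (0.75), Olig1 (0.74) and Sox10 (0.72), genes of the whole lineage. For Gjb1 they were Gpr37 (0.74), Ermn (0.72) and Tmem151a (0.72). Gjb2 came with Serping1 (0.58), Emilin1 (0.56) and Serpinf1 (0.55), and Gjb6 with Serping1 (0.51), Serpinf1 (0.48) and Ogn (0.48), so the 2 beta connexins shared 2 of their 3. Gja4 came with Higd1b (0.39), Fxyd5 (0.38) and Rgs5 (0.36), Gjc1 with Kitl (0.44), Cmtm8 (0.43) and Ocln (0.42), and Gja1 with Slc22a8 (0.36), Igfbp2 (0.34) and Slc13a4 (0.34). Ermn, Higd1b and Rgs5 are gate markers.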

How the data were processed

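The authors deposited a table of whole-number read counts per gene, not normalized. Per the submitters' processing notes, the tools were featureCounts (Subread 1.4.6-p5), TopHat2 2.1.1 and SAMtools 0.1.18, and the builds GRCm38 and mm10. No source used here gives the annotation, the strand setting or the handling of reads shared by genes, so overlapping or antisense genes can share reads. Gene positions came from GENCODE vM21 (42052 of 46517 symbols found).

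Wells with at least 50000 reads were kept (50002 to 1451280 reads). A well entered a lineage where at least 3 markers of a list were at 50 CPM and the mean log2(CPM + 1) of its 4 highest markers was at least 1 above that of any other lineage. Lists held 6 markers each. Cells are not replicates, so counts were summed per class, scaled to CPM, and compared as ratios with 1 CPM added and no test. Poisson intervals of CPM and Clopper-Pearson intervals of shares are exact, at 95%, and cover counting error only. Wells were sorted singly, and no doublet caller was run. Values within a set need 5 wells of each class.

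On simulated data for COP over OPC, 199 of 200 changed genes were called in the right direction, and 72 of 8753 unchanged genes were called. These values hold for classes of 90 and 226 wells only. Calling with the 28 endothelial-like or 3 mural-like wells was not tested. Nor was it tested for differences close to 2-fold, such as the 2.70-fold one of Gjc3, or for genes near 10 CPM. The members, marker lists and comparisons were chosen with earlier results of these data known. Named genes are the 8 members, other connexins and partner genes at 10 CPM in a class, and the 3 genes most correlated with each member. Some genes of the lists are not reported here. Alternatives were 100000 reads per well, other gates, the mean of single wells, TMM factors of edgeR 4.0.16, Leiden clusters (scanpy 1.11.5), no minimum, a pseudocount of 0.1, thinning to 100000 reads, 2 reads for detection, and leaving out sets, top wells or wells with markers of other types.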

Additional observations from a re-analysis of the deposited data

Results flagged for a closer look

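Reads of all 8 members appeared in the 295 wells with under 50000 reads, which enter no comparison. Summed over those wells, Gjc3 had 233 CPM, Gjb6 100.3 CPM, Gja1 93.3 CPM, Gja4 81.7 CPM, Gjb1 79.6 CPM, Gjb2 37.3 CPM, Gjc1 10.6 CPM and Gja5 1.08 CPM. Each is above 0.404 CPM, the level that a count of 0 allows in their 7429132 reads. No well was held as an empty control, so these levels have no background to be set against.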

How the results depend on the processing

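The 17 alternatives gave 262 counts of called connexins, and 226 stayed within 1.5 times the reported count. Of 36 called ratios, 30 kept their direction in each alternative that gave a value. Their size was less stable. Of 585 ratio values, 291 lay within the counting interval of the reported ratio, 281 lay outside it without turning, and 13 turned direction. The cause of the counts and ratios that moved or turned was not tested. For COP over OPC the count called higher was 3 with no gate margin, 2 with Leiden clusters and 2 without set 600s_182s. The count called lower was 2 with no minimum CPM. It was 1 with Leiden clusters, without each set, without wells with astrocyte markers and without wells of a second lineage. For OL over COP the count called higher was 1 with no gate margin and 1 with Leiden clusters, and the count called lower was 1 without set 613s and 1 without wells of a second lineage. For OL over OPC, 1 was called higher with Leiden clusters and 1 lower with no minimum CPM. For fibroblast over endothelial, 4 were called higher without wells of a second lineage. There 2 were called lower at 100000 reads per well, at a pseudocount of 0.1, without set 1025s_182s and without wells of 5% mitochondrial reads or more, and 0 with the mean of single wells, without set 613s and without the top wells. For mural over endothelial, 3 were called higher at a gate margin of 2, without set 613s, without set 1025s_182s and without wells with astrocyte markers, and 2 without the top wells. There 2 were called lower at a gate margin of 2, with the mean of single wells, without set 1025s_182s, without wells with astrocyte markers and without the top wells, and 0 with the mural class as wells with 3 mural markers at 200 CPM. For fibroblast over mural, 1 was called lower without set 613s.

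Directions turned as follows, on the log2 scale. Gja1 in OL over COP was −0.90 with Leiden clusters and −0.043 without set 600s_182s, and Gjb6 was −0.25 with Leiden clusters. Gja5 in mural over endothelial was −0.23 at a gate margin of 2, −0.46 without wells with astrocyte markers and −0.17 without the top wells. In fibroblast over mural it was 0.75 at a gate margin of 2, 0.91 without set 613s, 0.75 without wells with astrocyte markers and 0.21 without the top wells. Gjb2 in mural over endothelial was −2.40 without set 1025s_182s and −1.86 without the top wells, and Gjb6 was −5.23 without set 1025s_182s. TMM scaling shifted all ratios by 0.12 for COP over OPC, 0.20 for OL over COP, 0.32 for OL over OPC and −0.27 for fibroblast over OL, by under 0.1 elsewhere, and moved no count past 1.5 times. Leiden clusters gave no endothelial or mural class, since of the 2 clusters with endothelial markers highest, 1 led with choroid plexus genes and 1 with T cell genes. The alternatives on mitochondrial reads and on the mural class were chosen after seeing the data. No paired analysis was possible because all wells are 1 sample. Depth limits the single wells: at 50000 reads, 50 CPM is under 3 reads.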

Other observations

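The 91 ungated wells, which no comparison uses, carried members of several classes. They had 199.8 CPM of Gja1, 184.5 CPM of Gja4, 121 CPM of Gjb6, 109.9 CPM of Gjc3 and 53.0 CPM of Gjc1, and 52 of them had at least 5% mitochondrial reads. The highest Gjb6 of any well, 11259 CPM, was in an ungated well. The 14 microglia- or macrophage-like wells had 83.1 CPM of Gjb6, 76.0 CPM of Gjb2, 62.4 CPM of Gja4 and 33.7 CPM of Gjc3, with 2, 3, 2 and 5 wells at 50 CPM, while Gja1 had 1 read. Choroid plexus- or ependyma-like wells, 14 in number, had 44.3 CPM of Gjb6, 14.2 CPM of Gja4 and 13.6 CPM of Gja1.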
